A study of Bos taurus with 12 samples.

Results

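Embryonic myosins and genes linked to denervation were followed in bovine biceps brachii as 10 genes: MYH3, MYH8 and MYL4, which encode developmental myosin chains, CHRNA1, CHRNB1, CHRND and CHRNG, which encode subunits of the muscle acetylcholine receptor, the receptor kinase gene MUSK, the cell adhesion gene NCAM1 and the transcription factor gene RUNX1. Members were the probes whose gene name, gene number, accession or description maps to one of these symbols. There were 12 such probes among 21475 on the array, 3 of them for RUNX1 and 1 for each other gene. Of the 10 genes, 9 passed the filter on dim probes and were among the 13697 genes tested. MYH8 was well above background on 1 of 12 arrays and was not tested.

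Developing muscle fibres assemble their thick filaments from embryonic and perinatal myosins, which adult isoforms replace as the fibre matures, and regenerating adult fibres use the developmental isoforms again for a time. In a mature fibre the motor nerve keeps acetylcholine receptors at the synapse and silences their genes elsewhere along the fibre. When the nerve is lost, the fetal receptor subunit gamma, MUSK, NCAM1 and RUNX1 are known to rise outside the synapse, as shown mainly in rodents.

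RNA was measured in 12 male cattle aged 18 to 20 months, 4 in each group, on single-colour Agilent arrays. Controls were untreated. For 42 days the dexamethasone group took up 0.75 mg of the synthetic glucocorticoid dexamethasone per animal with the feed. In the combination group dexamethasone was given over 21 days, at 0.66 mg per animal, and the beta-adrenergic agonist clenbuterol over 28 days, in steps of 2 mg (week 1), 4 mg (week 2) and 6 mg (weeks 3 and 4) per animal. The 2 treatments thus differ in dexamethasone dose and length as well as in clenbuterol. The 12 animals were those of highest RNA quality among 24, with 8 per group, and each array is 1 animal. Animals are numbered 1 to 4 within a group, and the numbers pair nothing. On each array 53.2% to 68.7% of spots were well above background. The mean signal of negative-control spots was 67.3 to 92.5 on the 7 arrays of scan day 2 (control 4, dexamethasone 1 to 3 and combination 1 to 3) and 30.8 to 43.7 on the other 5. Markers of skeletal muscle were bright on every array: the mean level of the 9 tested was between 6.73 and 7.92. In bulk muscle RNA, fewer cells of a type and less RNA per cell cannot be told apart.

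Levels below are log2 signal relative to the 75th percentile of the same array, so a level of 0 is a spot as bright as that percentile, and levels are compared between arrays for 1 probe, never between probes. Dexamethasone 1 stands apart from the other 11 arrays in several of these genes, and combination 4 in MYH3, so results that rest on them are given with and without them. Probe sequences were not analysed here. In the RefSeq gene order of assembly ARS-UCD2.0, MYH8, MYH4, MYH1, MYH2 and MYH3 lie in 1 cluster of related genes, and cross-hybridisation between them was not tested. CHRND and CHRNG are direct neighbours in that order.

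MYH3, the embryonic myosin heavy chain, was measured well above background on 11 of 12 arrays. Its level was -2.48, -1.48, -3.30 and -1.92 in controls 1 to 4. It was 4.75, -2.70, -4.29 and -3.29 in dexamethasone 1 to 4, the third of these not well above background. It was -1.92, -0.95, -1.66 and 1.84 in combination 1 to 4. Dexamethasone 1 was thus the highest of all arrays and dexamethasone 3 the lowest, and every group overlapped every other. The processed signal on dexamethasone 1 was 31378 against 41.4 to 2785 on the other arrays. Its 2 spots read 31492 and 31265, so both carried the signal.

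MYH8, the perinatal myosin heavy chain, gave a measurable signal in dexamethasone 1 and in no other animal. Its level there was -1.54, with a signal of 403. On the other 11 arrays the probe was not well above background, at levels between -7.84 and -6.01 and signals between 3.87 and 14.8. No fold is given for a group, since 1 array of the 12 measured the gene. The 2 spots on dexamethasone 1 read 382 and 425.

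MYL4, an essential myosin light chain of embryonic skeletal muscle and of the adult atrium, followed the same animal. Its level was -3.88, -3.93, -4.10 and -4.32 in controls 1 to 4, the last not well above background. It was 1.59, -4.40, -2.31 and -3.98 in dexamethasone 1 to 4. It was -3.56, -4.14, -3.99 and -3.45 in combination 1 to 4. Dexamethasone 1 was highest and dexamethasone 3 was next, 3.17-fold above the median of the arrays other than itself. The remaining 10 arrays lay between -4.40 and -3.45, a span that holds all 8 control and combination animals.

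**Figure D1:**
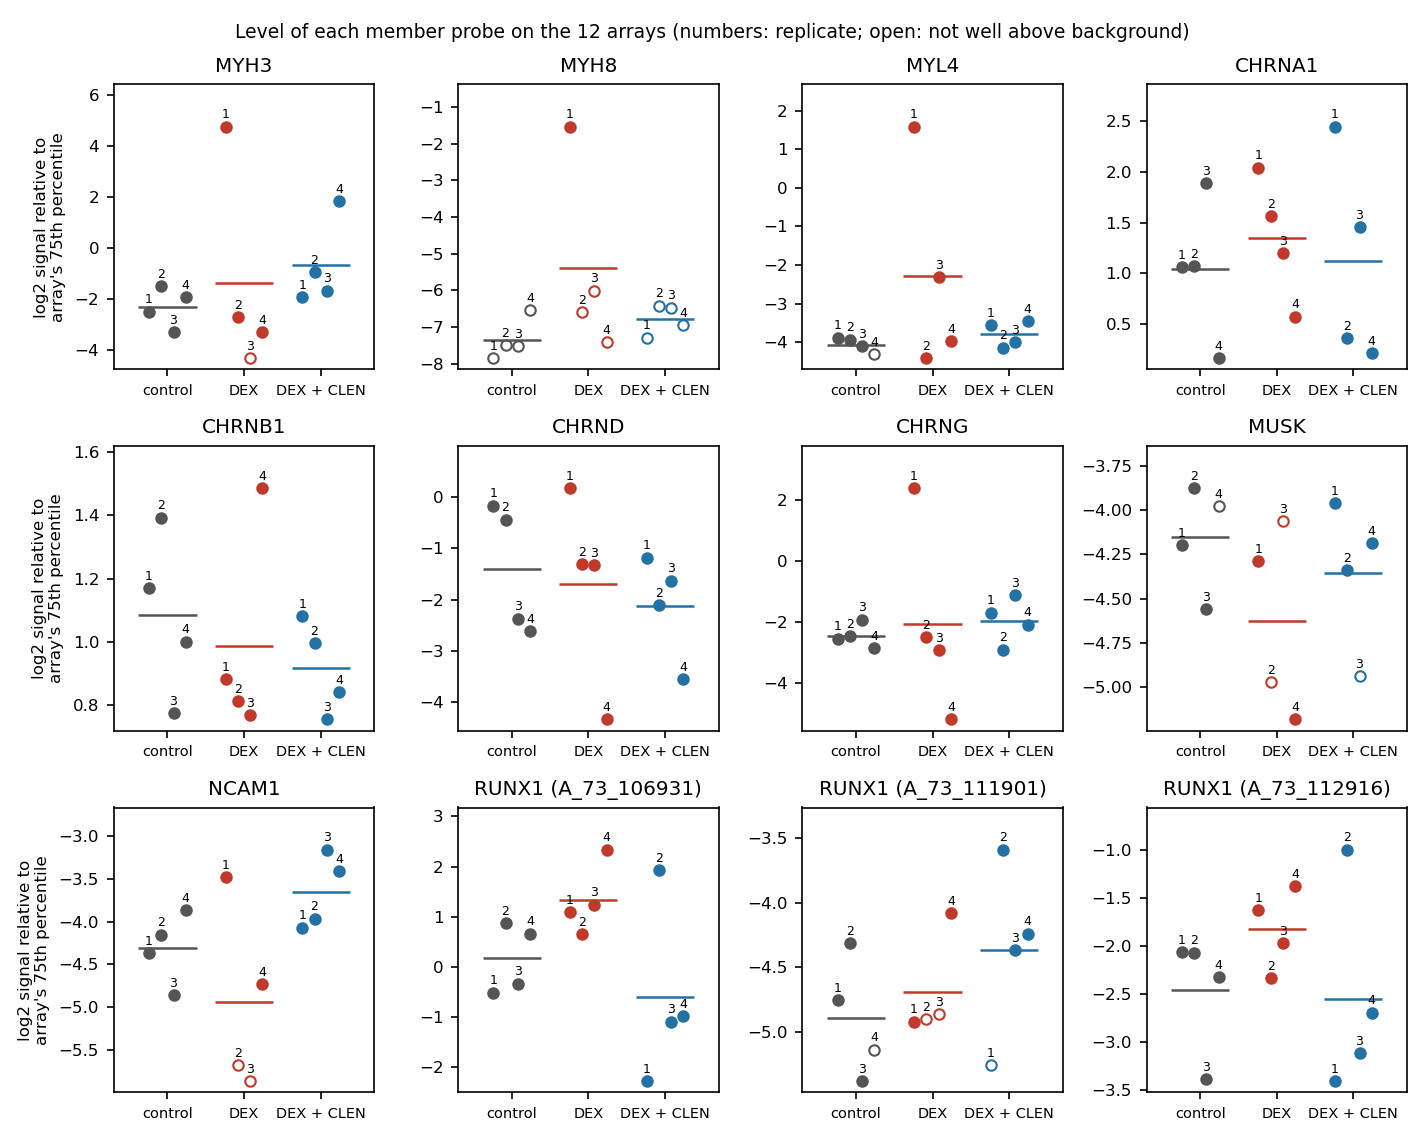
Level of each of the 12 member probes (log2 signal relative to the array's 75th percentile) in control, dexamethasone (DEX) and combination (DEX + CLEN) animals; points are single arrays numbered by animal, open points were not well above background, and lines are group means. MYH3, MYH8, MYL4 and CHRNG have 1 point far above the rest, dexamethasone 1, and MYH3 also has combination 4 above the other 10.

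Among the receptor subunits, CHRNG, the gamma subunit of the fetal receptor that the epsilon subunit replaces in adult muscle, showed the same animal. Its level was -2.55, -2.47, -1.92 and -2.86 in controls 1 to 4. It was 2.38, -2.49, -2.93 and -5.18 in dexamethasone 1 to 4. It was -1.70, -2.90, -1.12 and -2.09 in combination 1 to 4. The highest and the lowest level of the 12 thus both lay in the dexamethasone group, with the controls and the combination animals between them. The processed signal was 6063 on dexamethasone 1 and 20.4 to 453 elsewhere. CHRNE, the epsilon subunit, was chosen for this role from the list of junction genes. Its level in dexamethasone 1 was 2.32, close to the median of the other arrays (a log2 difference of -0.09), within a range of 1.33 to 3.27.

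CHRND, the delta subunit found in both receptor forms, varied widely within every group. Its level was -0.17, -0.44, -2.37 and -2.62 in controls 1 to 4. It was 0.17, -1.31, -1.33 and -4.33 in dexamethasone 1 to 4. It was -1.18, -2.11, -1.63 and -3.55 in combination 1 to 4. Dexamethasone 1 was again the highest array, but only narrowly above controls 1 and 2, and dexamethasone 4 and combination 4 were the lowest. The SD within groups was 1.27 in controls, 1.89 after dexamethasone and 1.03 after the combination.

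CHRNA1, the alpha subunit that binds acetylcholine, and CHRNB1, the beta subunit, were measured on all 12 arrays. The level of CHRNA1 ran from 0.17 to 1.89 in controls, from 0.57 to 2.04 after dexamethasone and from 0.21 to 2.45 after the combination, with combination 1 highest and dexamethasone 1 next. CHRNB1 ran from 0.77 to 1.39, from 0.77 to 1.49 and from 0.75 to 1.08 in the same order, and dexamethasone 1, at 0.88, was 7th of the 12. The beta subunit was the steadiest of the 9 members tested: its SD over the 12 arrays was 0.25, against a median of 0.37 over all genes.

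MUSK, the receptor kinase through which nerve agrin builds the synapse, was dim. It was well above background in 3 of 4 controls, 2 of 4 dexamethasone and 3 of 4 combination animals, and its level lay between -4.56 and -3.88, between -5.18 and -4.06, and between -4.94 and -3.96 in these groups. Dexamethasone 1, at -4.29, was 7th of the 12. MUSK thus did not share the high values that CHRNG had in that animal.

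NCAM1, a neural cell adhesion molecule that innervated adult fibres hold mainly at the synapse, was also dim. Its level was -4.37, -4.15, -4.86 and -3.87 in controls 1 to 4. It was -3.48, -5.68, -5.86 and -4.73 in dexamethasone 1 to 4, the second and the third not well above background. It was -4.07, -3.97, -3.16 and -3.41 in combination 1 to 4. Of the dexamethasone animals, dexamethasone 1 lay among the combination animals and the other 3 lay below all of them. Controls overlapped both treated groups.

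RUNX1, a transcription factor that is induced in denervated mouse muscle, had 3 probes. Over the 12 arrays the brightest and the middle probe had a Pearson r of 0.87, and the dimmest had 0.45 and 0.62 with them. The brightest, which stood for the gene, read -0.51, 0.87, -0.33 and 0.67 in controls 1 to 4. It read 1.09, 0.66, 1.24 and 2.34 in dexamethasone 1 to 4. It read -2.27, 1.94, -1.09 and -0.97 in combination 1 to 4, so 3 combination animals were the lowest of the 12 and combination 2 was second only to dexamethasone 4. The middle probe ranged from -3.38 to -2.06, from -2.33 to -1.37 and from -3.40 to -0.99 in the 3 groups. The dimmest probe ranged from -5.38 to -4.31, from -4.92 to -4.08 and from -5.26 to -3.59, and was well above background on 8 of 12 arrays. Combination 2 was the highest combination animal on all 3 probes. The brightest and the middle probe were assigned to RUNX1 only by the human match in their description, and the dimmest by its gene number.

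The animal that stands apart was compared with the other 11 arrays over all genes. MYH3 was 102-fold above the median of the other arrays in dexamethasone 1, ranking 1 of 13697 genes by this excess. MYL4 was 47.4-fold above and ranked 2, and CHRNG was 29.1-fold above and ranked 4. CHRND was 3.49-fold above and ranked 151. MYH8 is outside the ranking, and since none of the other arrays measured it, no fold is given. Of the 9 members tested, 3 were more than 2 on the log2 scale above the median of the other arrays in dexamethasone 1, against 0.847% of all genes, and 4 were highest in that animal, against 9.1%. The other 5 members tested had excesses between -0.11 and 0.97 there, so the subunits CHRNA1 and CHRNB1, MUSK, NCAM1 and RUNX1 did not join the 3. This is a description of 1 animal and has no test. In the authors' deposited table the same animal ranked 1 of 12 for MYH3 at 28212 against 51.5 to 3361 elsewhere, for MYH8 at 336 against 6.41 to 10.95, for MYL4 at 2899 against 45.5 to 193, for CHRNG at 5113 against 26.1 to 438, and for CHRND. That table ranks each array's spots as the scanner does, so it is no second measurement.

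**Figure D2:**
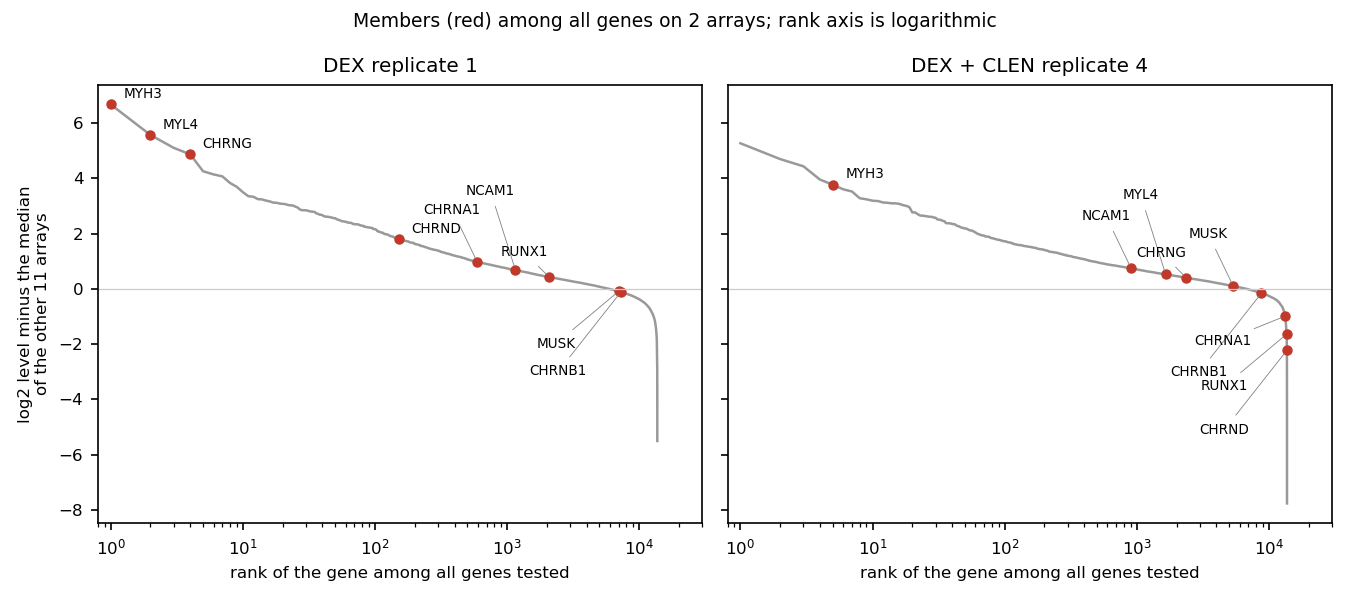
Log2 level minus the median of the other 11 arrays for all 13697 genes (grey), ranked from highest to lowest on a logarithmic axis, in dexamethasone 1 (left) and combination 4 (right), with the 9 members tested in red. In dexamethasone 1, MYH3, MYL4 and CHRNG hold ranks 1, 2 and 4; in combination 4, MYH3 alone is high, at rank 5, and CHRND lies near the bottom.

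Some other genes of developing and regenerating fibres were high in the same animal. Of 13 tested genes of a list of developmental sarcomere and regenerating fibre genes, 6 were highest in dexamethasone 1, and their median excess was 0.84, against -0.08 over all genes. ACTC1, the cardiac actin that embryonic skeletal muscle also makes, was 19.1-fold above the median of the other arrays and ranked 5. TNNT2, the cardiac troponin T of embryonic muscle, was 8.66-fold above and ranked 18, and CKB, the creatine kinase isoform of immature muscle, was 6.07-fold above. These 3 were picked for their excess after it was seen. Members of the same list also lay below the median of the other arrays: IGF2 had a log2 difference of -2.07, XIRP1 of -0.68 and CDH15 of -0.13. Among genes of the neuromuscular junction, 4 of 28 were highest in dexamethasone 1, and the median excess was -0.16. ERBB3, a neuregulin receptor (2.24), and ACHE, for acetylcholinesterase (2.03), were more than 2 above the median on the log2 scale. That is 2 of the 28, against 0.847% of all genes. ACHE was not highest in dexamethasone 1, at -3.59, since dexamethasone 3 read -3.23. It was well above background in 1 of 4 controls and 1 of 4 combination animals, whose values enter that median. SNTB1, which encodes a syntrophin, lay at -3.23, so the list held genes far above and far below. Denervation-responsive genes outside the members had 1 of 24 highest in that animal and a median excess of 0.05. MYOG, which encodes myogenin, was 2.18-fold above the median there, but its level of 3.32 lay within the range of the dexamethasone group, 2.62 to 4.42.

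Markers of other cell types also moved in dexamethasone 1. Of 14 leukocyte markers, 9 were highest in that animal, and the mean level of the list was -2.16 there, the highest of the 12 arrays. It was -4.22 to -3.30 in the other dexamethasone animals, -2.65 to -2.33 in controls and -3.31 to -2.66 in combination animals. CSF1R, the macrophage growth factor receptor, was 5.45-fold above the median of the other arrays. Its level was 1.09 there, -0.04 to 0.69 in controls and -1.83 to -0.46 in combination animals. In the other dexamethasone animals it was -3.05 to -1.35. CD3E, of T cells, was 0.427 of the median of the other arrays. At -4.74 it lay within the range of the dexamethasone group, -5.45 to -4.54. CD68 was highest in dexamethasone 1 at -3.62, with the others between -6.51 and -4.78, but was not well above background on any combination array. Markers of satellite cells, the stem cells of muscle, were mixed: CXCR4 was 5.24-fold above, PAX7 was not tested, and the median excess of 10 genes was 0.31. PAX3, not well above background on any combination array, read -3.88 in dexamethasone 1, below the highest of the others at -2.77. The mean level of skeletal muscle markers, 6.73, was the lowest of the 12 arrays. CKM, the muscle creatine kinase, was at 0.281 and MYH1, the fast 2X myosin, at 0.354 of the median of the others. TNNT3 (a log2 difference of -1.78) and MYLPF (-1.16) were also low. Others of the list lay nearer that median, such as TTN (0.19), DES (-0.06) and MYH7 (-0.16). The part of these cell types in the high values of MYH3, MYL4 and CHRNG was not tested.

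**Figure D3:**
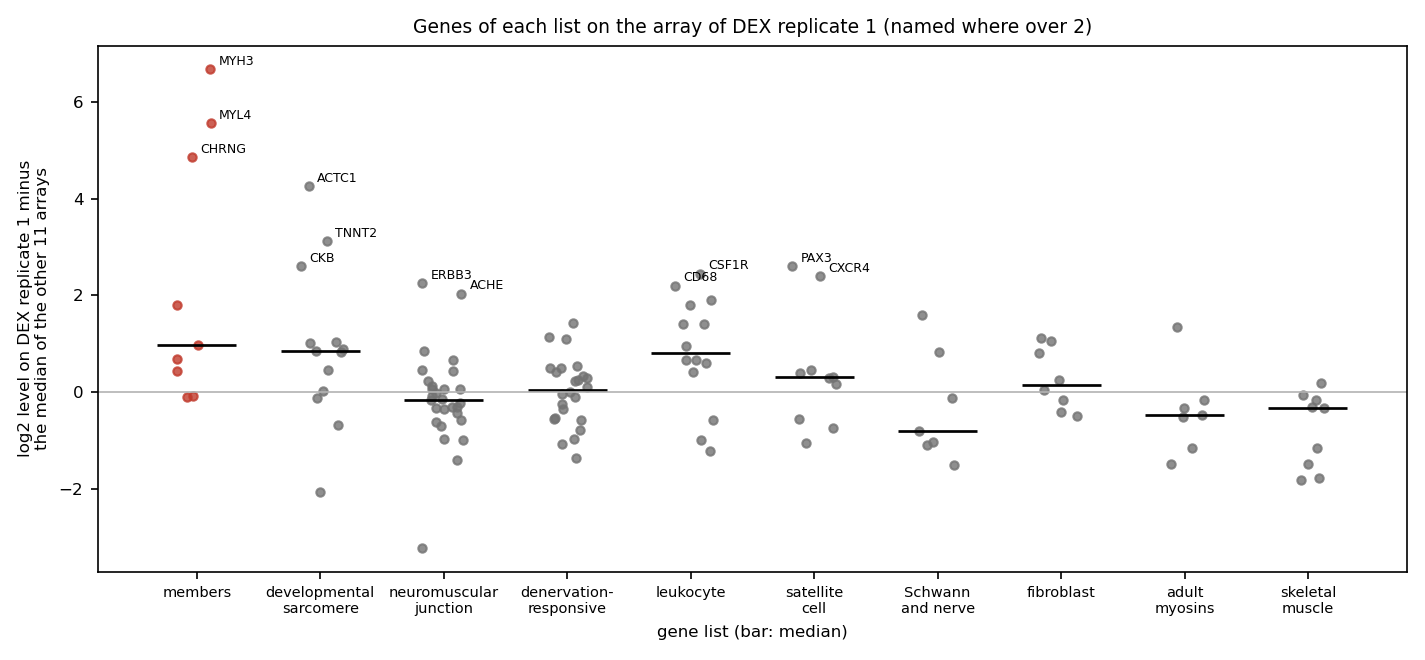
Log2 level in dexamethasone 1 minus the median of the other 11 arrays for each tested gene of 10 lists (points) with the list median (bar), genes over 2 being named. MYH3, MYL4, CHRNG and ACTC1 are the highest points, leukocyte markers lie mostly above 0, and skeletal muscle markers lie mostly below it.

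Of the members tested, combination 4 shared only the high MYH3, which was 13.6-fold above the median of the other arrays there and ranked 5 of 13697. MYH3 was the single member of 9 more than 2 above on the log2 scale, against 0.445% of all genes. MYL4 was 1.44-fold and CHRNG 1.32-fold above, MYH8 was not well above background, and CHRND, at 0.214 of the median, ranked 13672. ACTC1, the cardiac actin, ran from 1.37 to 3.43 in the combination group, and combination 4 was not its highest animal. The leukocyte list had its highest combination value, -2.66, in this animal.

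Dexamethasone alone against control asked whether a glucocorticoid course changes these genes. No member passed the test: limma with Benjamini-Hochberg adjustment over all genes called 0 of 9 members, against 0.613% of all genes. No member had an unadjusted p under 0.05, against 12.3% of genes, and no member had groups that did not overlap, against 6.42%. MYL4 had the largest difference, a log2 change of 1.78 ± 0.98 (SE, n = 4 per group; adjusted p = 0.494). Without dexamethasone 1 it was 0.49. The log2 change of MYH3 was 0.91 ± 1.61 (adjusted p = 0.873) with all animals and -1.13 without dexamethasone 1 (adjusted p = 0.509). That of CHRNG was 0.39 ± 1.16 (adjusted p = 0.930) and -1.08 (adjusted p = 0.384). The sign of both values therefore rests on 1 animal. The brightest RUNX1 probe differed by 1.16 ± 0.73 (adjusted p = 0.564), the middle probe by 0.64 (adjusted p = 0.650) and the dimmest by 0.20 (adjusted p = 0.868). Splits by scan day set dexamethasone 1 to 3 against control 4 alone within day 2, and dexamethasone 4 alone (day 3) against controls 1 to 3 (day 1) outside it, so each has an arm of 1 animal. The brightest RUNX1 probe differed by 0.33 and 2.33 in these splits. NCAM1 differed by -0.62 ± 0.45 (adjusted p = 0.629) with all animals and by -1.11 without dexamethasone 1. MUSK differed by -0.47 ± 0.28 (adjusted p = 0.543). CHRNA1 (0.30), CHRNB1 (-0.10) and CHRND (-0.30) had adjusted p-values of 0.867 to 0.930. CHRND differed by 1.79 within day 2 and by -3.34 outside it, and its SD was 1.27 among controls. The 95% interval of the MYH3 change, -2.59 to 4.41, leaves large changes either way undetected, whereas that of CHRNB1 was -0.52 to 0.33.

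The combination against control asked the same of dexamethasone given with clenbuterol. Again 0 of 9 members were called, against 0.0438% of all genes. None had an unadjusted p under 0.05, against 12.1%, and none had groups that did not overlap, against 8.21%. MYH3 had the largest difference, 1.62 ± 1.61 (adjusted p = 0.711), which was 0.78 without combination 4. Against control 4 alone within scan day 2 it was 0.41, and for combination 4 alone against the controls of day 1 it was 4.26. NCAM1 differed by 0.66 ± 0.45 (adjusted p = 0.575), with an interval of -0.33 to 1.65 and combination 3 and 4 above every control. The brightest RUNX1 probe differed by -0.77 ± 0.73 (adjusted p = 0.693). The middle probe differed by -0.09 (adjusted p = 0.959) and the dimmest by 0.53 (adjusted p = 0.558), so the probes did not give 1 direction. CHRND differed by -0.72 ± 0.89 (adjusted p = 0.777). CHRNG (0.50), MYL4 (0.27), CHRNA1 (0.07), CHRNB1 (-0.17) and MUSK (-0.20) had adjusted p-values of 0.766 to 0.970.

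The combination against dexamethasone alone compared treatments that differ in clenbuterol and in dexamethasone dose and length. Here too 0 of 9 members were called, against 0.0146% of all genes, and 2 had an unadjusted p under 0.05, NCAM1 and RUNX1, which is 2 of 9 against 11% of all genes. No member had groups that did not overlap, against 5.29%. The mean of NCAM1 in the combination exceeded that after dexamethasone by 1.29 ± 0.45 (interval 0.30 to 2.27; adjusted p = 0.331), a 2.44-fold difference in means of -3.65 and -4.94. An exact two-sided permutation test over these 8 arrays gave p = 0.0857, and the smallest it could give is 0.0286. Within scan day 2, with 3 animals in each group, the difference was 1.27. The remaining pair, combination 4 and dexamethasone 4, was scanned on different days and differed by 1.32. It was 1.77 without dexamethasone 1, where NCAM1 was called (adjusted p = 0.0484), and 0.41 with another background correction (normexp). Dim values of 2 dexamethasone animals enter it.

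The brightest RUNX1 probe had a log2 difference of -1.93 ± 0.73 (interval -3.52 to -0.34; adjusted p = 0.363; exact permutation p = 0.114). Within scan day 2 the difference was -1.47, and between the remaining pair of animals it was -3.31. Without combination 2 it was -2.78 (adjusted p = 0.0595). The middle probe differed by -0.73 (adjusted p = 0.626) and the dimmest by 0.33 (adjusted p = 0.783), so the 3 probes did not give 1 direction. MYH3 differed by 0.71 ± 1.61 and MYL4 by -1.51 ± 0.98 (adjusted p = 0.913 and 0.617). Without dexamethasone 1 they differed by 2.75 (adjusted p = 0.149) and -0.22 (adjusted p = 0.856), and without combination 4 MYH3 differed by -0.13. CHRNG differed by 0.10 ± 1.16 with all animals and by 1.58 without dexamethasone 1 (adjusted p = 0.263). The 3 comparisons share groups, so their values are not independent.

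**Figure D4:**
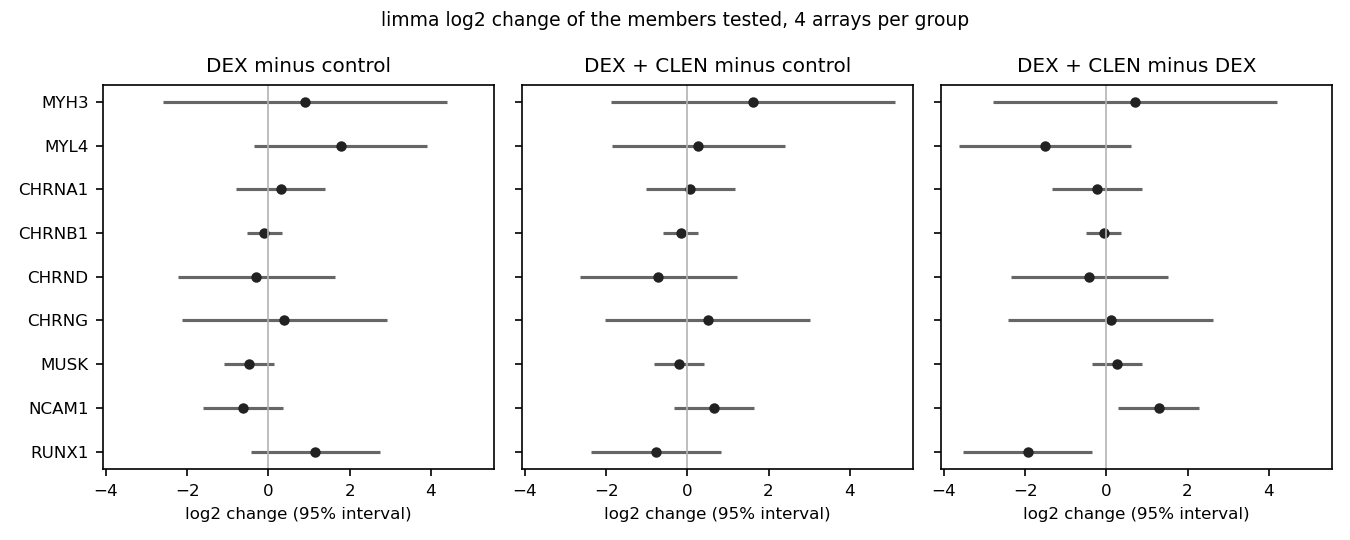
Log2 change (points) with its 95% interval (lines) from limma for the 9 members tested, in dexamethasone minus control, combination minus control, and combination minus dexamethasone, with 4 arrays per group. The intervals include 0 except for NCAM1 and RUNX1 in the third comparison, before adjustment for multiple testing, and are widest for MYH3.

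Junction partners of the receptor were followed as a list of 30 genes that are no members, 28 of them tested. None was called in any of the 3 comparisons. The median log2 change was 0.11, 0.04 and 0.00108 for dexamethasone against control, combination against control and combination against dexamethasone, and the medians of all genes were 0.0333, 0.0309 and 0.0174. ACHE, which encodes acetylcholinesterase, had the smallest p in the dexamethasone comparison. Its level was -7.58 to -5.63 in controls, where 1 of 4 was well above background, and -4.67 to -3.23 after dexamethasone, where 4 of 4 were, without overlap (log2 change 2.55 ± 0.54, adjusted p = 0.0665). LAMA4, the laminin alpha 4 chain of the basal lamina, differed by -0.86 ± 0.19 (adjusted p = 0.0771), and NID2, a nidogen of the synaptic basal lamina, differed by -0.60 (adjusted p = 0.191). In the combination, LAMA5 differed by 0.76 (adjusted p = 0.216) and RAPSN, whose product rapsyn clusters the receptors, by 0.48 (adjusted p = 0.368). ACHE was well above background in 1 of 4 animals of either group, so no difference is given for it.

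Denervation-responsive genes outside the members numbered 26, with 24 tested and 0 called in each comparison. The median log2 change was 0.03 for dexamethasone and 0.19 for the combination against control, where 19 of 24 genes were above 0 and 53.7% of all genes were. The mean level of the list was 1.24 to 1.29 in controls, 1.25 to 1.47 after dexamethasone and 1.51 to 1.67 in the combination, so the combination animals lay above both other groups. The list was chosen with results of these data known, and this has no test. MYOD1, a myogenic transcription factor, was 1.81 to 2.33 in controls and 2.65 to 4.27 after dexamethasone (log2 change 1.33 ± 0.31, adjusted p = 0.0828). MYOG was 0.09 to 2.45 and 2.62 to 4.42 (2.00 ± 0.59, adjusted p = 0.170). GADD45A, a growth arrest gene, differed by -1.44 ± 0.45 (adjusted p = 0.205), with dexamethasone 1, at 2.33, above the other dexamethasone animals. In the combination, DLK1 differed by 0.84, MYF6 by 1.26 and HDAC5, a histone deacetylase, by 0.53, with adjusted p-values of 0.267 to 0.366.

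Other genes of developing and regenerating fibres numbered 18, with 13 tested and 0 called in each comparison. Their median log2 change was 0.77 for dexamethasone and 0.69 for the combination against control, and 0.26 between the treatments. Against control 10 and 12 of 13 were above 0, where 54.6% and 53.7% of all genes were. This list, too, was chosen with results of these data known, and the counts have no test. The mean level of the list was 0.76 to 1.60 in controls, 1.34 to 2.61 after dexamethasone and 1.99 to 2.31 in the combination. Dexamethasone 1 gave the 2.61, and the other 3 dexamethasone animals lay between 1.34 and 1.94. CSRP3, the muscle LIM protein, was 4.23 to 6.16 in controls and 6.73 to 7.23 after dexamethasone (1.42 ± 0.39, adjusted p = 0.149). MYL6B, another essential light chain, differed by 2.60 ± 0.76 after dexamethasone (adjusted p = 0.168) and by 2.42 in the combination (adjusted p = 0.268), with control 3 at the level of the treated animals (7.92). MYH7B differed by 1.28 (adjusted p = 0.383). In the combination, CDH15, the M-cadherin of satellite cells, differed by 0.70 ± 0.17 without overlap (adjusted p = 0.187) and NES, which encodes nestin, by 1.46 (adjusted p = 0.333).

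Adult myosins gave no call among 7 tested. MYH4, the fast 2B heavy chain, differed by 1.15 ± 0.37 after dexamethasone (adjusted p = 0.220), with dexamethasone 1 highest of the 12 at 2.65. MYH7, the slow heavy chain, differed by 0.22 and MYH1 by -0.36. Schwann cell and nerve markers had 7 of 16 genes tested and 0 called, and the defining Schwann gene SOX10 was not tested. After dexamethasone S100B differed by 0.95 (adjusted p = 0.377), GFRA3 by 0.58 (adjusted p = 0.702) and PMP22 by -0.35 (adjusted p = 0.671). The mean level of this list was -2.99 to -1.66 in controls, -2.45 to -1.58 after dexamethasone and -2.67 to -1.46 in the combination.

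Among markers of other cell types, CD3E fell after dexamethasone, from -3.51 to -2.43 in controls to -5.45 to -4.54 (log2 change -1.74 ± 0.31, adjusted p = 0.0312), and was the only gene of the fixed lists to be called in any comparison. Of 14 leukocyte markers, 12 were below 0 in dexamethasone against control, with a median of -0.72. Of 8 fibroblast markers 8 were, with a median of -1.20. Over all genes 54.6% were above 0 in that comparison, with a median of 0.0333. These lists were also chosen with results of these data known, and the counts have no test. The mean level of fibroblast markers was 1.74 to 2.21 in controls, 0.02 to 1.71 after dexamethasone and 0.72 to 2.01 in the combination. The part of these cells in the group values of NCAM1, RUNX1 and the junction genes was not tested.

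The members differed in how much they varied over the 12 animals. MYH3 had an SD of 2.48 on the log2 scale, the 9th highest of 13697 genes, CHRNG 1.73 (68th), MYL4 1.66 (86th), RUNX1 1.35 (181st) and CHRND 1.34 (187th). NCAM1 had 0.85 and CHRNA1 0.74, above the median of all genes, MUSK had 0.44, and CHRNB1, at 0.25, lay below it. Member levels were also set against each other over the 12 arrays as a description. MYH3 and MYL4 had a Pearson r of 0.71 with all arrays and -0.16 without dexamethasone 1, and MYL4 and CHRNG had 0.78 and 0.01. MYH3 and CHRNG had 0.76 and 0.32. MYH3 and NCAM1 had 0.68 and 0.74, and 0.80 without combination 4 as well. The neighbouring genes CHRND and CHRNG had 0.63 and 0.51, and -0.07 without dexamethasone 4 as well, the lowest array for both. CHRNG and RUNX1 had -0.30 with all arrays and -0.80 without dexamethasone 1.

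The genes whose level was most like each member over the 12 arrays, by Pearson r, were GM2A (0.91) and CHI3L1 (0.90) for MYH3, MED10 (0.95) and SLC2A3 (0.90) for MYL4, and SGSM2 (0.92) and SMARCA1 (0.91) for CHRNG. Without dexamethasone 1 these values were 0.78, 0.74, 0.79, 0.94, 0.85 and 0.70. TBC1D14 (0.92) and HACE1 (0.87) were most like CHRND, SLC22A4 (0.90) and RNF113A (0.89) most like CHRNA1, and MAP3K2 (0.90) and NXF1 (0.88) most like CHRNB1. PPP1R12A (0.87) and RIMKLB (0.83) were most like MUSK, WHRN (0.90) and CDCA3 (0.88) most like NCAM1, and EFNB2 (0.91) and AMD1 (0.91) most like RUNX1. These are the 2 highest of all genes with a symbol, so high values are built into the choice.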

How the data were processed

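Spots hold intensity on a linear scale, made with Agilent Feature Extraction 9.5.1.1, per the file headers. The table the authors deposited holds intensity too, and ranks each array's spots as the scanner does (Spearman at least 0.999996). Its medians were 137.25 to 181.167, and its making is not stated in the labels or headers. For each spot, log2 of the processed signal minus the array's 75th percentile was taken, control spots and outlier flags (1 to 6 spots per array) left out, saturated spots kept (3 to 10 per array, none of a member), and the spots of a probe averaged. Probes flagged well above background on 4 or more of the 12 arrays were kept (14703), and the brightest probe of a gene stood for it (907 genes had several). Names came from a RefSeq table (ARS-UCD2.0): 10098 probes by gene number, 3413 by accession, 383 by symbol and 3557 by the human match in the description, and 4024 kept the file's name.

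The 3 groups were fitted together with limma 3.58.1 in R 4.3.3 (lmFit, eBayes), and two-sided p-values adjusted by Benjamini-Hochberg over 13697 genes in each comparison, a call being an adjusted p under 0.05. The fit was tested on simulated data. With single-colour arrays, precision is limited by their number. Arrays correlated at 0.9717 within and 0.9666 between groups, on average. The named genes are all members and the 2 genes most like each member. List genes named are those called, or otherwise the 3 of smallest unadjusted p in each comparison with control. Of satellite cell and fibroblast markers, not all genes under this rule are named. Other genes were chosen after their values were seen. Members and lists were chosen with earlier results of these data known. Slides and scan days come from the file headers. Slide 1 (day 1) held controls 1 to 3, slide 2 (day 2) control 4 and dexamethasone 1 to 3, slide 3 (day 2) combination 1 to 3, slide 4 dexamethasone 4 and slide 5 combination 4. Alternatives were other background correction, normalization, filters, values, blocks and sets of arrays.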

Additional observations from a re-analysis of the deposited data

Results flagged for a closer look

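Of 36 sets of 4 arrays (12 member probes in 3 groups), 2 held an array whose gap to the nearest other, as a share of the group's range, exceeded Dixon's 95% critical value for 4 values. Chance flags about 1 in 20 such sets. CHRNB1 was highest in dexamethasone 4, with a gap of 0.84 of the range: its level was 1.49 there and 0.88 in the nearest animal of the group. The dimmest RUNX1 probe was highest in dexamethasone 4 too, with a gap of 0.934: its level was -4.08 there and -4.87 in the nearest animal, and 2 of the 4 values were not well above background. MYH3 in dexamethasone 1, with a gap of 0.823, fell just short of the critical value; the other 3 dexamethasone animals ran from -4.29 to -2.70.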

How the results depend on the processing

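With 4 animals per group and wide spread, the intervals of MYH3, CHRND and CHRNG cover changes of over 2-fold in both directions in each comparison; MYH8 is measured in 1 animal, and MUSK, NCAM1 and the dimmest RUNX1 probe lie close to background. The 27 member results (9 genes in 3 comparisons) gave 636 values under alternatives: 584 kept direction and side of the threshold or moved by less than the spread between replicates, 30 in 11 results changed sign in a fit, 21 moved further, and 1 passed the threshold. Of the 54 values within or outside scan day 2, which have no test and mostly an arm of 1 animal, 14 had the opposite sign and are counted among those that moved by less or by more than the spread; with them, 16 results had a sign change. No paired analysis was possible because the labels give no replicate numbers shared between groups. The causes of the changes below were not tested, beyond what leaving out arrays or genes does by construction.

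Genes called in dexamethasone against control were 84, and 13 with a 2-level scan block, 25 without a filter on dim probes, 326 with dexamethasone 1 and combination 4 both left out (chosen after seeing the data) and 24 to 257 with single arrays left out, the 257 without dexamethasone 1. In the combination against control they were 6, and 0 with the scan block, without a filter, with probes well above background on all 12 arrays and with slide as a random block, 3 with only 2 groups fitted and with quantile normalization, 38 with both arrays left out and 0 to 12 with single arrays left out. Between the treatments they were 2, and 0 with the scan block, the authors' table, both arrays left out, no filter, only 2 groups, quantile normalization and the slide block, 1 with normexp and with probes well above background on all arrays, and 0 to 74 with single arrays left out, the 74 without dexamethasone 1. Members called between the treatments were 0 to 1 with single arrays left out: NCAM1 without dexamethasone 1 (1.77, adjusted p = 0.0484; 0.0484 to 0.676 over its alternatives).

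Sign changes in fits were as follows (log2). With both arrays left out, MYH3 (-1.13) and CHRNG (-1.08) in dexamethasone against control, and CHRNA1 (0.31) and CHRND (0.68) between treatments. With the scan block, CHRNB1 (0.015) and CHRNG (-0.24) in dexamethasone against control, and CHRNA1 (-0.11) and CHRNG (-0.14) in the combination against control. With normexp, CHRNG between treatments (-0.32). Among scan day values with opposite sign that moved further than the spread, those outside day 2 were, in dexamethasone against control, CHRNA1 (-0.77), CHRNB1 (0.37) and CHRNG (-2.87), in the combination against control CHRNA1 (-1.13), and between treatments MYL4 (0.52); those within day 2 were CHRND in dexamethasone (1.79) and in the combination (0.97) against control. The others, within the spread, were MYH3 (-0.87) and MYL4 (-0.0071) in dexamethasone and MUSK (0.02) in the combination against control, and CHRND (0.79) between treatments, outside day 2, and MYH3 (-0.76), CHRNB1 (0.12) and CHRNG (-0.89) between treatments within it. With single arrays left out, dexamethasone against control ranged from -1.13 to 1.88 for MYH3, -0.26 to 0.0058 for CHRNB1, -0.93 to 0.58 for CHRND and -1.08 to 1.44 for CHRNG; the combination against control from -0.37 to 0.37 for CHRNA1; and the treatments against each other from -0.26 to 2.75 for MYH3, -0.67 to 0.077 for CHRNA1, -0.14 to 0.10 for CHRNB1, -1.30 to 0.21 for CHRND and -0.94 to 1.58 for CHRNG.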

Other observations

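Beyond the fixed lists, the genes that stood out most in dexamethasone 1 were looked up after their values were seen, as a description of 1 animal. MT1A, a metallothionein, ranked 3, at a level of -0.90 with the other 11 arrays between -7.82 and -3.86, 3 of them well above background. MT1A thus passed the filter on dim probes only through this animal. Its rank rests on a median of values mostly not well above background. Values in parentheses are the log2 excess over the median of the other arrays. CHI3L1 (4.14), a secreted chitinase-like protein of macrophages, and IL1RN (4.07), the interleukin 1 receptor antagonist, ranked 6 and 7. PLTP (3.33), NCF4 (3.19), a subunit of the phagocyte oxidase, and APOE (2.97) were among the first 25. At the other end, FRZB (-5.50), a secreted Wnt antagonist, PLAC8L1 (-4.78) and PVALB (-4.68), the calcium buffer of fast fibres, lay furthest below that median. PLAC8L1 read -5.75 in dexamethasone 1, and the lowest of the other arrays read -6.78. MSTN, which encodes myostatin, lay at -2.73 against the median of the other arrays, with 8 of those 11 well above background. Its level was -6.88, and the lowest of the other arrays was also -6.88. FKBP5, a glucocorticoid-induced gene, lay at -2.44, at a level of 0.55 where the other 11 arrays ran from -0.01 to 4.67.

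The 40 highest genes of combination 4 and the 40 of dexamethasone 1 had 3 in common, MYH3, CFI and HSPA6. HSPA6, a heat shock protein, ranked 1 in combination 4 and 23 in dexamethasone 1, but was well above background on 5 of the 11 arrays other than combination 4. Its level was -0.69 in combination 4 and -2.94 in dexamethasone 1, and a further animal was higher than both, at 1.74. CFI was well above background on 4 of the 11 arrays other than combination 4. IDO1 (3.95), an interferon-induced enzyme, CH25H (3.52), INHBA (3.19) and SAA3 (3.13) were among the 12 highest. Each of them was higher in this animal than in any other, SAA3 only narrowly (-1.28 against at most -1.37). PVALB, near the bottom in dexamethasone 1, was 2.45 above the median in combination 4.

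Counted over all genes, dexamethasone 1 had 116 genes more than 2 above the median of the other arrays, and the other 11 arrays had 20 to 68. It also held the lowest level of the 12 arrays for 16.4% of genes, against 5.34% to 10.03% on the others.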
